A study of Mus musculus with 12 samples.

Results

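A small set of genes was silent in control macrophages and carried more than a few reads only in cells given etoposide. The set was chosen on the measured values: a gene belonged to it when it had 5 or fewer counts in each of the 6 control libraries and at least 30 counts in at least 3 of the 6 etoposide libraries. The rule found 47 of the 32688 genes listed. These 47 were 0.362% of the 12973 genes that were silent in the controls by the same limit. Because the contrast between etoposide and control picked the genes, their counts in those groups are given as a description and were not tested.

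The cells were RAW264.7, a mouse macrophage line, in 2 forms. DKO cells lacked both TFEB and TFE3, related transcription factors of the lysosomal and stress response, and Null cells served as their wild-type counterpart. Each form was either kept as a control or given 100 µM etoposide for 8 hr, with 3 libraries in each of the 4 groups, named Null control, DKO control, Null etoposide and DKO etoposide. Each genotype was represented by a single CRISPR line, so a difference between genotypes and a difference between lines cannot be told apart. Control cells were untreated per the labels, while the study's methods give them DMSO. The study describes its samples as independent, without saying whether that means separate cultures, so p-values measure only the spread between these libraries.

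Etoposide traps topoisomerase II on DNA and leaves strand breaks. The breaks activate p53, which switches on genes of cell cycle arrest, repair and death, and in macrophages DNA damage also feeds inflammatory signalling through NF-kB. A gene with no reads in a bulk library may be closed in every cell, and reads that appear after a treatment may come from a few cells or from all of them. In bulk RNA, more cells expressing a gene and more RNA per cell cannot be told apart.

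Library totals ran from 29837255 to 61809316 counts, the lowest in a control library. Tfeb was at 16.8 ± 0.286 CPM (counts scaled to library size; SD, n = 3) in Null control and 4.40 ± 1.12 CPM in DKO control libraries. After etoposide it was at 7.56 ± 0.427 and 4.34 ± 0.0894 CPM. Tfe3 was at 104 ± 14.8 and 37.8 ± 5.71 CPM in the controls and at 101 ± 2.02 and 37.7 ± 3.20 CPM after etoposide. The DKO etoposide libraries are titled as MEFs, mouse embryonic fibroblasts, but as RAW264.7 in their remaining labels. The summed level of 8 macrophage markers was 4585 to 4775 CPM in those libraries and 4193 to 5132 CPM in the control libraries. Single markers moved within that sum. After etoposide 4 were higher and 3 lower in DKO cells, where 20.2% and 19.1% of all genes tested were. In Null cells 1 was higher and 4 were lower, against 20.9% and 18.7%. From DKO control to DKO etoposide libraries, Fcgr1 went from 28.4 to 30.4 CPM down to 4.72 to 5.42 CPM. Itgam went from 117 to 160 CPM up to 308 to 368 CPM. The summed level of 8 fibroblast markers was 0.152 to 0.263 CPM in DKO control and 0.646 to 0.928 CPM in Null control libraries, then 1.01 to 1.20 CPM in DKO and 1.91 to 2.04 CPM in Null etoposide libraries. Of the 8, 7 were silent in the controls and none belonged to the 47. The 2 that were tested, Pdgfra (2.94 log2 in Null, 1.42 in DKO) and Pdgfrb (0.74 and 1.83), rose with etoposide in both genotypes, and their part in the results was not tested. The rest of that list, Col1a1, Col1a2, Col3a1, Dcn, Lum and Thy1, stayed at or below 0.135 CPM in all 12 libraries.

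Summed over the 47 genes, each control library held 38 to 48 counts, and each etoposide library held 3347 to 4706. All 6 control libraries together gave 259 counts of 274862921. In 8 of the genes no control library had a single count: Gm15756, Aknad1, Ckmt1, Crhr2, Rab44, Gas6, Kank1 and Col5a1. At most 2 counts in any control library were seen for 28 genes, and 5 genes touched the limit of 5. These genes remained weakly expressed after etoposide. Their mean level over the 6 etoposide libraries ran from 0.344 to 11.9 CPM with a median of 0.887 CPM, and 21 of them reached 1 CPM. The mirror rule, silent after etoposide with at least 30 counts in at least 3 control libraries, found 0 genes, chosen as an alternative after seeing the data and with no test attached.

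**Figure D1:**
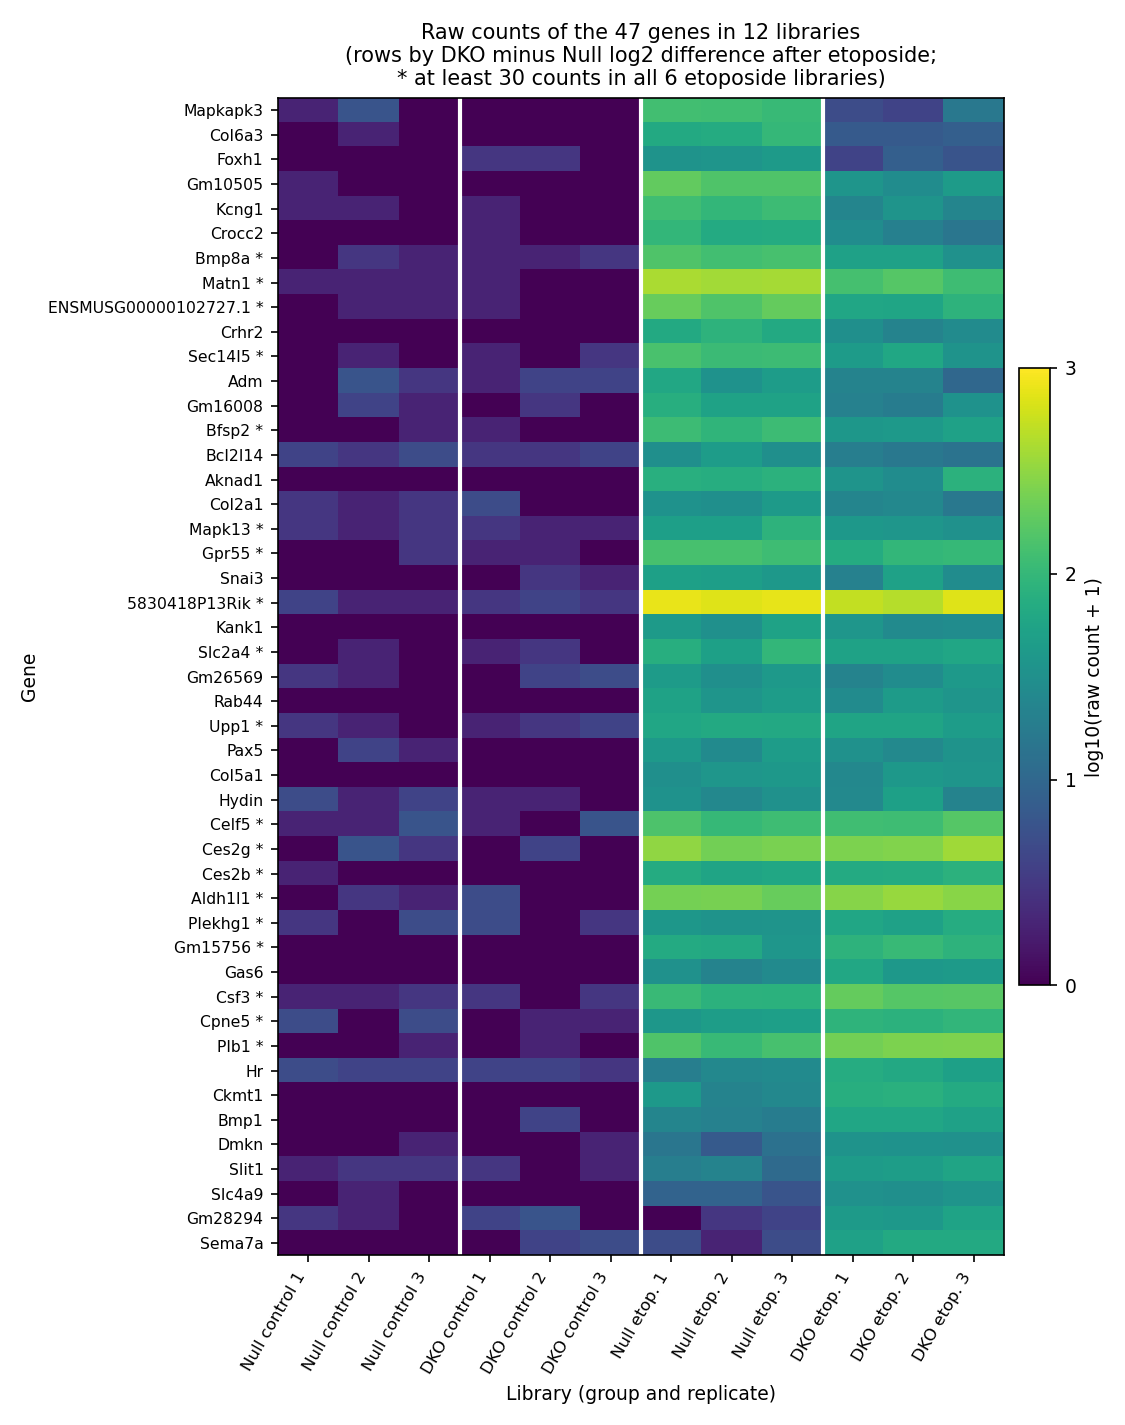
Heat map of raw counts, on a log10(count + 1) scale, of the 47 genes (rows) in the 12 libraries (columns, by group and replicate), with rows ordered by the DKO minus Null difference after etoposide and an asterisk on the 19 genes at 30 counts or more in all 6 etoposide libraries. The 6 control columns hold 5 counts or fewer in every row, whereas after etoposide the top rows carry reads mainly in Null libraries and the bottom rows mainly in DKO libraries.

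The limits fell within a continuum. Just outside the control limit, with a highest control count of 6, lay 8 genes that met the etoposide limit. These were Pak6, Sytl1, Rgcc, Gm28902, Slc5a1, Ccl22, Ankk1 and Mir34a. Mir34a, the gene of a microRNA known as a p53 target, had a mean of 0.0880 CPM in Null control and 0.487 CPM in Null etoposide libraries. Just short of the etoposide limit, with 28 or 29 counts in the third-highest library, lay Lrp2, Nxph3, Afap1, Wnk2, Inava, Dnah10 and Gm16105. On the inside of that limit, Bcl2l14, Col2a1 and Slc4a9 had 30 counts in the third-highest library, followed by Dmkn and Hydin with 32. On the inside of the control limit, with 5 counts in 1 or more control libraries, were Ces2g, Celf5, Mapkapk3, Adm and Gm28294.

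Protein-coding genes made up most of the set. They numbered 40 of the 47 (85.1%), against 44.0% of all genes silent in the controls. The long noncoding RNAs (lncRNAs) 5830418P13Rik, Gm10505, Gm15756, Gm16008, Gm26569 and Gm28294 added 6. The remaining entry was the identifier ENSMUSG00000102727.1, which had no match in the gene models or name tables used. No pseudogene was among them although 2675 pseudogenes were silent in the controls. None of the 1364 silent genes of other classes, short RNA genes among them, passed.

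The genes were also long. Their gene models had a median exonic length of 4401.5 bases, against 1492.5 bases for silent genes that did not pass. Among protein-coding genes alone the medians were 4790.5 and 3022 bases. None had a single exon, which 35.4% of the silent genes that did not pass had, but 5.87% of the protein-coding ones among these. A fixed minimum of counts is met more easily by a long transcript, and the part of that in these shares was not tested.

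Per kilobase of exon, where levels can be compared between the 46 genes with a gene model, the lncRNA 5830418P13Rik stood highest at 5.06 CPM per kb in Null and 3.55 in DKO cells after etoposide. Its 10 exon blocks lie on chromosome 9, chr9:103423578-103461260 on the plus strand (GRCm38). It had 1 to 3 counts in each control library, then 792, 718 and 781 counts in Null etoposide and 526, 463 and 715 counts in DKO etoposide libraries. The 3 Null libraries all lay above the 3 DKO libraries in CPM. The difference between genotypes was -0.53 ± 0.26 (log2, SE) with an adjusted p of 0.14, past the 0.05 threshold in edgeR (adjusted p = 0.022), in DESeq2 (0.0095), with only the etoposide libraries (0.0043) and without Null control replicate 1 (0.037), in a range of 0.0043 to 0.36 over all 19 alternatives.

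The genotypes were then compared with each other after etoposide. The rule bears on this comparison, because it asked for 30 counts in only 3 of the 6 etoposide libraries, and a gene that reached them in 1 genotype alone had to differ. There were 15 genes at the minimum in exactly 3 libraries: 7 in the Null libraries alone, 7 in the DKO libraries alone, and Hydin in a mixture. Another 13 reached the minimum in 4 or 5 libraries. For these 28 genes the difference between genotypes is given as a description with no test, and genes said below to be tested between genotypes are the remaining 19.

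The 19 genes at the minimum in all 6 etoposide libraries are the ones that the rule leaves freest to differ or not. A gene was called when limma gave an adjusted p under 0.05 over all 18066 genes tested. Of the 19, 5 were lower in DKO cells (Matn1, Bmp8a, Sec14l5, Bfsp2 and ENSMUSG00000102727.1), 2 were higher (Plb1 and Csf3) and 12 were not called. Of those 12, 7 were called when only the 6 etoposide libraries entered the fit: 5830418P13Rik, Gpr55 and Mapk13 lower, and Aldh1l1, Gm15756, Cpne5 and Plekhg1 higher. Among all genes tested in the fit of all 12 libraries, 17.8% were lower and 15.9% were higher. The shares called over all genes with only the etoposide libraries in the fit are not given here. The 7 further calls thus have no share to be set against. The median difference over the 19 was -0.33 (log2) against -0.01 over all genes tested. Their summed level was 53.6 to 58.8 CPM in Null and 44.2 to 46.9 CPM in DKO etoposide libraries. The widest gaps within that sum were those of Matn1 (7.26 CPM in Null, 2.36 in DKO), 5830418P13Rik (14.0 and 9.80) and ENSMUSG00000102727.1 (3.33 and 1.17). Ces2g, Aldh1l1, Plb1, Csf3, Celf5, Gm15756, Ces2b, Cpne5 and Plekhg1 had the higher mean in DKO cells. Complete separation of the 3 Null from the 3 DKO etoposide libraries in CPM was seen for 15 of the 19 and for 55.6% of all genes tested.

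**Figure D2:**
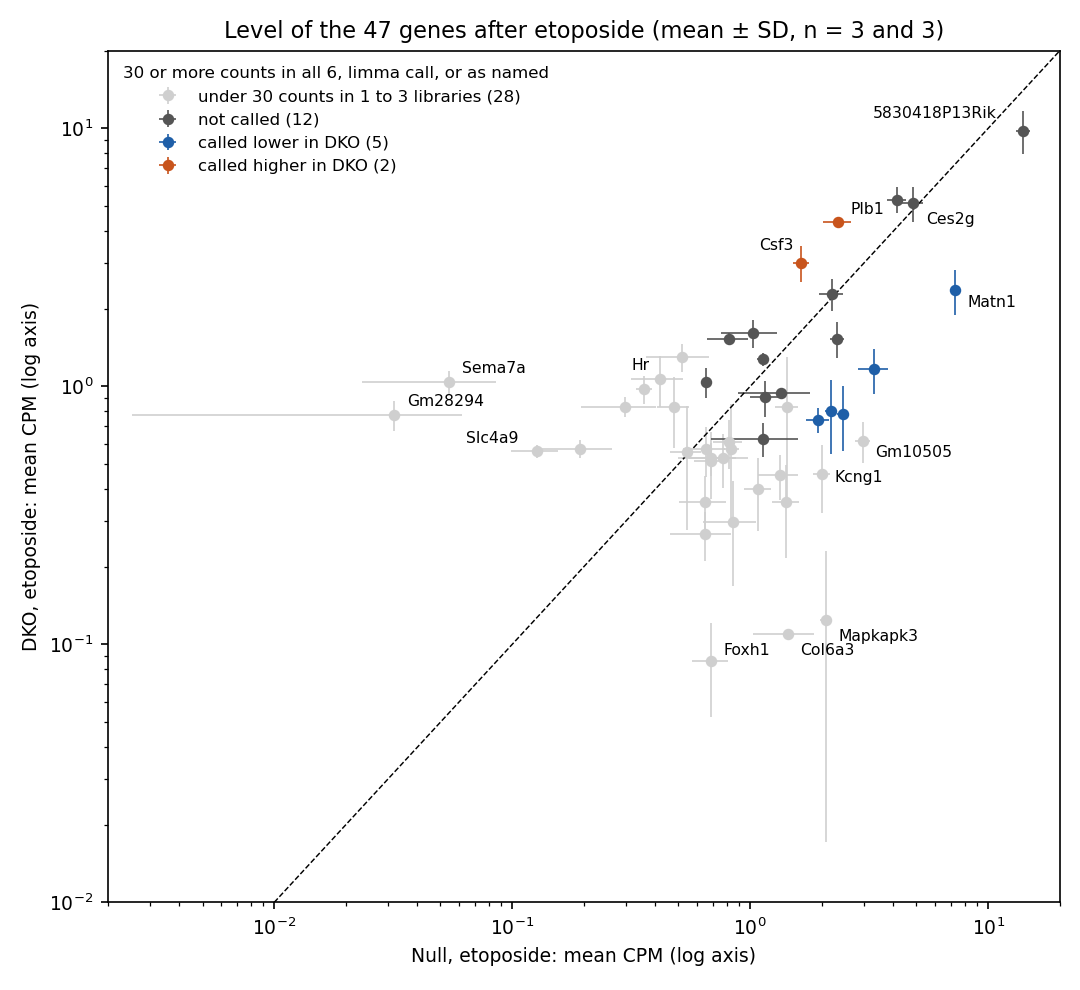
Mean CPM of each of the 47 genes in DKO etoposide (vertical, log axis) against Null etoposide libraries (horizontal, log axis), with SD bars (n = 3 and 3), the line of equal level dashed, and colours for the 19 genes at 30 counts or more in all 6 libraries, called lower (5), higher (2) or not called (12) in DKO cells. The other 28, in light grey, were not tested between genotypes, and among them Mapkapk3, Col6a3 and Foxh1 lie far below the line and Sema7a and Gm28294 far above it.

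The genes are described below by what their products do, a grouping made after the values were seen and carrying no test. Of 4 genes of the extracellular matrix, Matn1 was at the minimum in all 6 etoposide libraries and was lower in DKO cells. It encodes matrilin-1, a matrix protein of cartilage. It had 0 or 1 count in each control library. After etoposide it had 418, 381 and 391 counts in Null and 131, 161 and 115 counts in DKO libraries. All Null libraries were thus above all DKO libraries, by -1.61 ± 0.21 (log2 DKO minus Null, SE; adjusted p = 8.3e-05). Col6a3 encodes a chain of collagen VI. Its counts were 66, 69 and 99 in Null etoposide and 6, 6 and 7 in DKO etoposide libraries, a log2 difference of -3.12 ± 0.28 (SE). The DKO libraries lay just above the control limit. Col5a1, a chain of collagen V, had no control count, then 30 to 39 counts in Null and 24 to 39 in DKO etoposide libraries. Col2a1, the main cartilage collagen, had 30 to 42 and 15 to 24 counts.

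Secreted or surface signals and the proteins that process them made up 8 genes. The 2 of them that reached the minimum in all 6 etoposide libraries were called in opposite directions, Csf3 higher and Bmp8a lower in DKO cells. Csf3 encodes G-CSF, the cytokine that drives neutrophil production. It had 0 to 2 counts in each control library, then 106, 83 and 81 counts in Null and 196, 161 and 163 counts in DKO etoposide libraries. The groups did not overlap and the difference was 0.85 ± 0.27 (log2, SE; adjusted p = 0.029). That call was lost, with an adjusted p of 0.055 to 0.11, in 5 of the 6 fits that left out an etoposide library (Null replicate 1, 2 or 3, DKO replicate 1 or 2). Over all 19 alternatives its adjusted p ran from 0.00019 to 0.16.

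Sema7a, a semaphorin anchored to the membrane that acts on immune cells and axons, carried reads mainly in DKO cells. Its counts were 4, 1 and 4 in Null etoposide and 51, 65 and 65 in DKO etoposide libraries, a log2 difference of 3.32 ± 0.39 (SE). The Null libraries did not leave the range of the controls, which was 0 to 4 counts. Slit1, a secreted axon guidance ligand, had 18, 21 and 10 counts in Null and 43, 46 and 56 in DKO etoposide libraries (log2 difference 1.36 ± 0.29). Bmp1 encodes a protease that trims procollagens rather than a growth factor. It had 22, 20 and 17 counts in Null and 58, 59 and 51 in DKO etoposide libraries (log2 difference 1.30 ± 0.29). Dmkn encodes dermokine, a secreted epidermal protein, and had 14, 6 and 12 against 34, 33 and 32 counts (log2 difference 1.36 ± 0.31). Sema7a, Slit1, Bmp1 and Dmkn all met the rule through the 3 DKO libraries alone.

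Bmp8a encodes a ligand of the TGF-beta family. It had 149, 121 and 134 counts in Null and 51, 51 and 32 in DKO etoposide libraries (difference -1.62 ± 0.30, adjusted p = 0.0011). Adm encodes adrenomedullin, a vasodilator peptide. It had 62, 33 and 45 against 21, 21 and 9 counts, a log2 difference of -1.39 ± 0.43 (SE), and met the rule through the 3 Null libraries alone. Gas6, the ligand of the TAM receptors that macrophages use in engulfing dying cells, had no control count, then 21 to 32 counts in Null and 39 to 62 in DKO etoposide libraries.

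Metabolic enzymes made up 6 genes. Of the 5 at the minimum in all 6 etoposide libraries, Plb1 was higher in DKO cells and 4 were not called. Ces2g and Ces2b are carboxylesterases from 1 gene cluster on chromosome 8, 121.6 kb apart on the same strand. Ces2g had 231 to 317 counts in Null and 258 to 369 in DKO etoposide libraries, and Ces2b had 56 to 69 and 68 to 83. Ces2g overlapped between genotypes, whereas Ces2b overlapped in raw counts but not in CPM, and the differences were 0.08 (adjusted p = 0.89) and 0.16 (0.65). Aldh1l1, an enzyme of folate metabolism, had 200 to 241 and 283 to 341 counts without being called (0.35 ± 0.32 log2, SE, adjusted p = 0.44). Upp1, a uridine phosphorylase, had 58 to 66 and 45 to 56. Plb1 encodes a phospholipase. It had 147, 104 and 133 counts in Null and 227, 257 and 264 in DKO etoposide libraries (difference 0.88 ± 0.22, adjusted p = 0.0089). That call was lost with a prior count of 1 (adjusted p = 0.083, the highest over all alternatives, with 4.5e-06 the lowest). Ckmt1 encodes a mitochondrial creatine kinase and had no count in any control library. After etoposide it had 41, 21 and 24 against 76, 80 and 68 counts (log2 difference 1.26 ± 0.26).

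Both kinases belonged to the p38 pathway. Mapkapk3 is a kinase that p38 phosphorylates, and Mapk13 is the p38 delta isoform. Mapkapk3 had at most 5 counts in any control library, then 121, 118 and 104 counts in Null and 4, 3 and 15 in DKO etoposide libraries. The log2 difference was -3.70 ± 0.42 (SE), and 2 of the 3 DKO libraries stayed within the control limit. Of the 3 other genes tested within 50 kb of it, 2 differed between genotypes and 1 was not called. Cish, a suppressor of cytokine signalling 6149 bases upstream on the opposite strand, had a mean of 0.393 CPM after etoposide in Null cells against 0.0226 CPM in DKO cells (-2.48 log2, adjusted p = 8.0e-05). Hemk1, a methyltransferase gene 37207 bases upstream on the same strand, was at 3.53 and 0.0815 CPM (-4.71 log2, adjusted p = 1.1e-06). Dock3, 23018 bases downstream on the same strand, was at 0.618 and 0.578 CPM (-0.12 log2, adjusted p = 0.78). Hemk1 stood apart in the controls as well, with 2.82 CPM in Null control against 0.0680 CPM in DKO control libraries, and the part of such a line difference in the Mapkapk3 counts was not tested. Mapk13 had 49, 49 and 86 counts in Null and 39, 37 and 32 in DKO etoposide libraries and was not called (adjusted p = 0.076, with 0.036 to 0.32 over the alternatives). It was called lower in DKO cells by edgeR (0.039) and with only the etoposide libraries in the fit (0.036).

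Channels, transporters and receptors made up 5 genes, of which Gpr55 and Slc2a4 could be tested and were not called. Kcng1, a modifier subunit of potassium channels, had 119, 97 and 112 counts in Null and 22, 35 and 22 in DKO etoposide libraries (log2 difference -2.02 ± 0.28). Crhr2, a receptor for stress peptides of the corticotropin-releasing family, had no control count. It then had 66, 85 and 66 against 30, 21 and 27 counts (log2 difference -1.44 ± 0.25). Slc4a9, an anion exchanger, had 8, 8 and 5 counts in Null and 32, 30 and 35 in DKO etoposide libraries (log2 difference 1.74 ± 0.27). Gpr55, a lipid receptor, had 115 to 133 and 69 to 101 counts (-0.59 log2, adjusted p = 0.11, with 0.011 to 0.34 over the alternatives and calls by DESeq2 and with only the etoposide libraries), and Slc2a4, the insulin-responsive glucose transporter, had 50 to 95 and 52 to 58 (-0.44 log2, adjusted p = 0.28).

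Regulators of gene expression made up 5 genes, of which only Celf5 could be tested, and it was not called. Foxh1, a partner of SMAD proteins in nodal signalling, had 34, 36 and 42 counts in Null and 3, 7 and 5 in DKO etoposide libraries (log2 difference -2.37 ± 0.31). Hr encodes the hairless corepressor and had 18, 24 and 26 against 71, 63 and 50 counts (log2 difference 1.24 ± 0.28). The others were Pax5, the factor that fixes B-cell identity (26 to 45 and 25 to 34 counts), Snai3, a Snail-family repressor (39 to 50 and 20 to 51), and Celf5, an RNA-binding protein (101 to 144 and 117 to 161, 0.05 log2, adjusted p = 0.94). The 4 B-cell markers, Pax5 among them, summed to 0.0563 to 0.606 CPM in the control libraries and to 0.700 to 1.58 CPM after etoposide. Cd79a was at 0.0563 to 0.875 CPM in the 12 libraries and Ms4a1 at or below 0.0493 CPM. Their part in the reads of Pax5 was not tested.

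Proteins of the cytoskeleton, cilia and membrane traffic made up 8 genes. Of the 4 that could be tested, Bfsp2 and Sec14l5 were lower in DKO cells and 2 were not called. Bfsp2, an intermediate filament protein of the eye lens, had 113, 92 and 112 counts in Null and 38, 40 and 51 in DKO etoposide libraries (difference -1.31 ± 0.24, adjusted p = 0.0011), and the reads it shares with an overlapping lncRNA are described below. Crocc2, related to the ciliary rootlet protein, had 97, 68 and 69 against 28, 19 and 14 counts (log2 difference -1.87 ± 0.29). Sec14l5, of the lipid-transfer SEC14 family, had 136, 109 and 113 against 43, 61 and 34 counts (difference -1.42 ± 0.31, adjusted p = 0.0037). Hydin of motile cilia, the actin regulator Kank1 and the small GTPase Rab44 were not tested. The exchange factor Plekhg1 was not called (0.62 log2, adjusted p = 0.24). Cpne5, a calcium-binding copine (38 to 49 counts in Null, 83 to 94 in DKO), had an adjusted p of 0.096, or 0.023 without Null control replicate 2 and 0.0038 in DESeq2, and 0.0030 to 0.31 over all alternatives.

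Outside these groups stood Bcl2l14, a member of the Bcl2 family of death regulators. It had 30, 45 and 30 counts in Null and 18, 15 and 13 in DKO etoposide libraries (log2 difference -1.09 ± 0.31). Aknad1, for which no role is given here, had 77, 73 and 83 counts in Null and 35, 28 and 83 in DKO etoposide libraries. A single DKO library reached the Null range, and without it, DKO etoposide replicate 3, the log2 difference was -1.26 in place of -0.86. ENSMUSG00000102727.1 had 202, 149 and 195 counts in Null and 59, 57 and 87 in DKO etoposide libraries (difference -1.47 ± 0.25, adjusted p = 0.00055).

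Of the 6 lncRNAs, 5830418P13Rik and Gm15756 could be tested and were not called. Gm10505 had 191, 150 and 149 counts in Null and 36, 28 and 43 in DKO etoposide libraries (log2 difference -2.18 ± 0.25). Gm28294 had 0, 2 and 3 against 42, 39 and 54 counts (log2 difference 3.25 ± 0.42). Its Null libraries stayed within the control limit, as those of Sema7a did. Gm26569 had 30 to 43 and 21 to 41 counts. The other 3, like Gm28294, overlapped a gene on the opposite strand and are taken up with the neighbours.

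The set was also compared with known gene lists. The lists, like the set, were written with earlier results of these data known. Of 66 genes known as p53 targets, 58 were tested and 47 were higher after etoposide in Null cells and 39 in DKO cells. Over all genes tested, 20.9% were higher in Null and 20.2% in DKO cells. Of the 66, 7 were silent in the controls and 0 belonged to the set, where the share of all silent genes was the 0.362% given above, or less than 1 gene in a list of any of these lengths. Of 58 cytokines and chemokines, 54 were listed and 28 were silent in the controls, and 1 of these, Csf3, belonged to the set. Of those tested, 19 of 26 were higher after etoposide in Null and 20 in DKO cells. Of 21 interferon genes, 8 were listed and none belonged to the set. Their summed level was at most 0.206 CPM in any library.

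Marker lists of other cell types gave 1 further gene, Pax5 of the 4 B-cell markers. None of the 6 epithelial, 5 T or NK cell, 5 neuron, 4 endothelial, 4 muscle, 4 germ cell and 8 macrophage markers belonged to the set. The summed epithelial level was at most 0.0188 CPM in the controls and 0.269 to 0.672 CPM after etoposide. The summed endothelial level was 0.742 to 1.65 CPM in the controls and 3.03 to 4.26 CPM after etoposide, and of its 4 genes, all tested, 3 were higher in Null and 1 in DKO cells. Neuron markers summed to 0.152 to 0.287 CPM in the controls and 0.297 to 0.521 CPM after etoposide. The T or NK list, 3 of its genes listed, summed to 0.0825 to 0.884 and 0.140 to 0.477 CPM, and the germ cell list to 0.0202 to 0.395 and 0.135 to 0.674 CPM. The part of such markers in the reads of the 47 genes was not tested. The muscle list summed to 0.309 to 0.551 CPM in Null control and 0.251 to 0.549 CPM in DKO control libraries. With etoposide it summed to 16.1 to 18.9 CPM in the Null libraries and to 3.83 to 5.02 CPM in the DKO ones. Nearly all of that was Des, the muscle intermediate filament desmin, with 15.7 to 18.7 CPM in the former and 3.60 to 4.78 CPM in the latter. Des, named here after its values were seen, missed the set on its control counts.

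Promoter windows were examined for the short motifs of factors that answer stress. RefSeq windows (GRCm38.p6; 250 bases before to 50 after a transcript start) were at hand for 31 of the 47 genes, 45 windows in all, of 32851 windows in the table. A p53 site, both half-sites joined with no spacer and at most 1 mismatch, was in 0 of the 45 and in 0.0883% of all windows. With 2 mismatches allowed, the shares were 0 of 45 and 0.798%. The NF-kB letters GGGACTTTC were in 0 of 45 and in 0.353% of all. The AP-1 letters TGACTCA, which read TGAGTCA on the other strand, were in 6 of the 45 windows (13.3%) and in 5.20% of all. Overlapping windows of Dmkn and of Upp1 hold the same match, and by gene the shares were 3 of 31 (9.68%; Dmkn, Plb1 and Upp1) and 5.95% of all genes. The CRE letters TGACGTCA were in the window of Gm15756 alone. The letters TATAAA or their reverse were in 3 windows (6.67%, against 13.6% of all), those of Ckmt1, Crhr2 and Gm10505. CACGTG, the core of the element that TFEB and TFE3 bind, was in 1 window (2.22%, against 7.15% of all), that of Mapkapk3. A match shows only that the letters are present, and a missing match says nothing of a factor acting from elsewhere.

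A few of these windows are printed because they carry the letters beside a gene described above, with the matched letters in capitals. Mapkapk3 (chr9:107289347-107289646, minus strand) carried its reads mainly in Null cells, and its CACGTG begins 167 bases before the start. Plb1 (chr5:32238834-32239133, plus strand) was higher in DKO cells and has TGAGTCA 200 bases before the start. Upp1 (chr11:9117758-9118057, plus strand) was not called between genotypes and has TGAGTCA 45 bases before the start. Crhr2 (chr6:55132967-55133266, minus strand) was at 0 in all controls and has TATAAA 39 bases before the start.
Mapkapk3: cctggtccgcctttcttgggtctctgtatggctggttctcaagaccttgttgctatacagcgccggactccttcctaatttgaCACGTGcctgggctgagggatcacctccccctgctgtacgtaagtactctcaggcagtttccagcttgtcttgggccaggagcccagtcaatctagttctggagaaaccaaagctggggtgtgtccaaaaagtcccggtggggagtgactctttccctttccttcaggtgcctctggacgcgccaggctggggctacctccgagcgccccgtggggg
Plb1: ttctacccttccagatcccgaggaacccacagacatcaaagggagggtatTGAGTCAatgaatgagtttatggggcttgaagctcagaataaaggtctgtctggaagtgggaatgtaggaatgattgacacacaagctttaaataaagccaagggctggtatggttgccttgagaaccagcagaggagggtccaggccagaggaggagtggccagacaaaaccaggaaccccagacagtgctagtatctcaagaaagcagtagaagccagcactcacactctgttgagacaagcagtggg
Upp1: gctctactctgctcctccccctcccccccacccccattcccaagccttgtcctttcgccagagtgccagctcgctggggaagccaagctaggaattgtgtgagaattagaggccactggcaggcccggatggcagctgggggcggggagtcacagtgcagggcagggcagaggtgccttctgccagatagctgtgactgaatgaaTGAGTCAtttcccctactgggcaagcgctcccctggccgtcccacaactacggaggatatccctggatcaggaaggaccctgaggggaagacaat
Crhr2: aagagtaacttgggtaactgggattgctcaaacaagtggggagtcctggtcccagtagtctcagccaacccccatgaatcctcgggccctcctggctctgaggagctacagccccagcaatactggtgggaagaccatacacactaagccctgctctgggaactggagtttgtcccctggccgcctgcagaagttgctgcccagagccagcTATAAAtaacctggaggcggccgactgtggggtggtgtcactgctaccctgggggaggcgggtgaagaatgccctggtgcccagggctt

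The neighbours of each gene were examined next, since reads of a nearby active gene can run into a silent one or be counted for it. Gene models were at hand for 46 of the 47. A neighbour counted when it lay within 10 kb or overlapped, was not itself one of the 47 and had at least 1 CPM over the etoposide libraries. For 27 of the 46 (58.7%) there was no such gene. The same held for 73.3% of silent genes that did not pass, for 79.4% of the protein-coding ones among these, and for 43.9% of all genes listed. The 19 genes with a neighbour split, by the closest kind of contact, into 2 with overlapping exons (Gm16008 and Gm28294), 1 within overlapping gene bodies (Snai3), 5 with an expressed gene upstream on the same strand (Matn1, Csf3, Celf5, Bmp8a and Hr) and 11 with any other arrangement. With the distance set at 5 kb the 19 became 12, and with 50 kb they became 35. No such gene was found for 73.9% of the 46 at 5 kb and for 23.9% at 50 kb. The same held for 79.5% and 48.8% of silent genes that did not pass, and for 50.4% and 26.1% of all genes listed.

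The 28 neighbours themselves moved in both directions. In Null cells 8 were higher and 8 were lower after etoposide (28.6% each), where 20.9% and 18.7% of all genes tested were. In DKO cells 11 were higher (39.3%) and 8 were lower, where 20.2% and 19.1% of all genes tested were. Among tested genes at 1 CPM or more, the shares higher were 22.9% in Null and 23.0% in DKO cells, and the shares lower were 22.2% and 22.0%. Among neighbours of silent genes that did not pass, 24.6% and 24.8% were higher, and 23.5% and 22.4% were lower. A neighbour called higher in either genotype was found for 6 of the 46 genes: Csf3, Hr, Gm16008, Snai3, Gm28294 and Foxh1. A neighbour called lower in either genotype was found for 9. The count of 8 lower in DKO cells became 5 without DKO etoposide replicate 1.

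**Figure D3:**
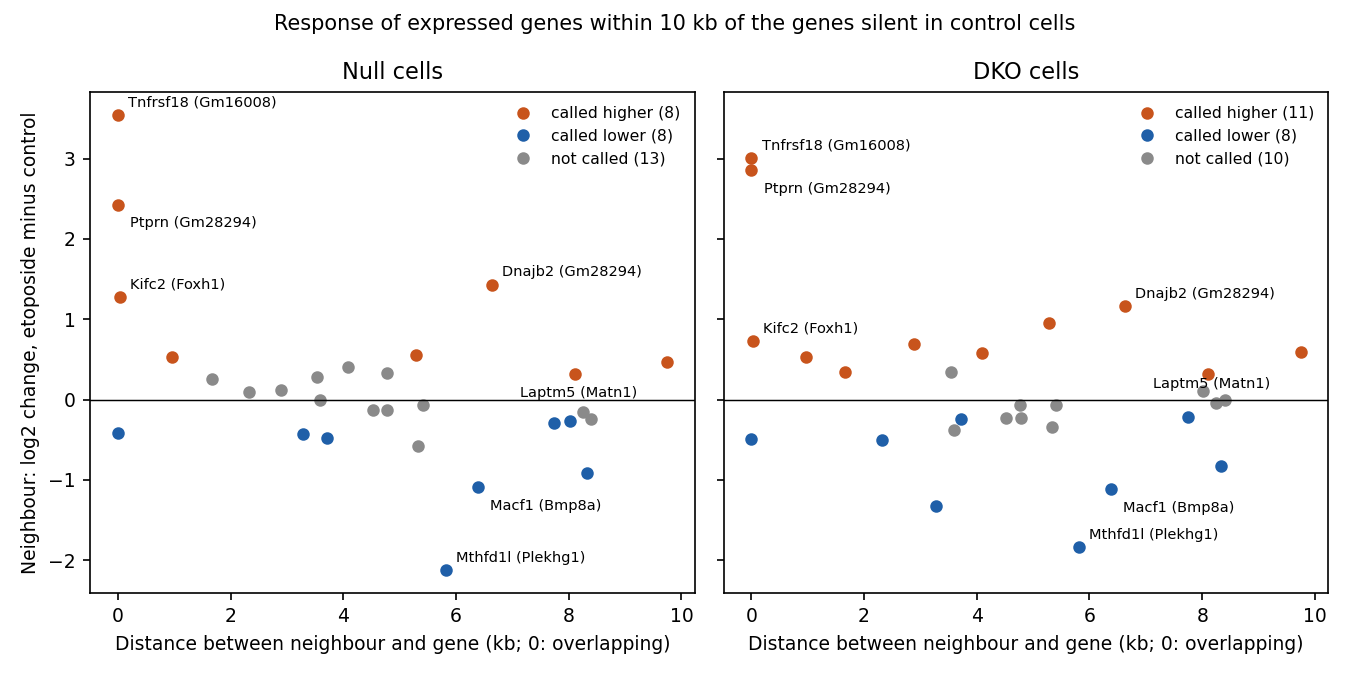
Change of each expressed neighbour (vertical, log2 etoposide minus control) against its distance from the gene (horizontal, kb, 0 for overlapping) in Null (left) and DKO cells (right), for 29 pairs, 28 neighbours and 19 genes, coloured by the limma call. The neighbours spread over both signs, with Tnfrsf18 and Ptprn, which overlap lncRNAs of the set, the highest in both genotypes and Mthfd1l the lowest.

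An expressed gene upstream on the same strand is the arrangement in which transcripts that fail to end would enter the silent gene. Laptm5, a lysosomal membrane protein of blood cells, ends 8244 bases upstream of Matn1. Its mean level after etoposide was 810 CPM (Null) and 679 CPM (DKO), and it was not called after etoposide in either genotype (-0.15 and -0.04 log2). Macf1, a large cytoskeletal linker, ends 6381 bases upstream of Bmp8a and fell in both genotypes (701 to 328 CPM in Null, 654 to 302 CPM in DKO). Reep4 ends 3279 bases upstream of Hr and fell too (-0.43 and -1.32 log2). Psmd3, a proteasome subunit, ends 5284 bases upstream of Csf3 and rose in both (61.2 to 89.9 CPM in Null, 61.2 to 119 CPM in DKO). Ncln ends 3540 bases upstream of Celf5 and was not called (0.28 and 0.34 log2). The arrangement was also found beside closer contacts at 2 genes. Dnajb2, a co-chaperone, ends 6630 bases upstream of Gm28294 and rose (1.43 and 1.16 log2), and Rnf166 ends 5414 bases upstream of Snai3 and was not called (-0.07 log2 in both). Of these 7 upstream neighbours, 2 rose, 2 fell and 3 were not called in both genotypes.

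Between genotypes after etoposide, 4 of the 28 neighbours were called higher in DKO cells (Psmd3 near Csf3, Gm20388 at Snai3, and Dnajb2 and Ptprn at Gm28294), 3 were lower (Ppip5k1 near Ckmt1, Reep4 near Hr and Tnfrsf18 at Gm16008) and 21 were not called. The shares of all genes tested were the 15.9% and 17.8% given above. The called genes of the set with a neighbour were partly chosen for their own difference, so no count of shared directions is given.

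Overlapping genes on opposite strands were the closest contacts. Strand use in the counting was not stated, so it was read from the counts. Genes with at least 90% of their exons inside those of an abundant gene (20000 counts or more) were compared with that host gene in reads per base. The median ratio was 1.05 for hosts on the opposite strand (136 genes) and 0.558 for hosts on the same strand (255 genes). Reads of opposite-strand partners can therefore be counted together, and the share of each gene that the overlap could supply is given.

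5830418P13Rik and Bfsp2 share 201 bases of exon on opposite strands, and both belong to the set. At the read density of the lncRNA, the overlap could supply 64.6% of the Bfsp2 counts over the 6 etoposide libraries, with 52.6% in Null and 96.0% in DKO cells. The lncRNA itself differed by -0.53 (log2, not called) between genotypes, and Bfsp2 by -1.31. In turn, Bfsp2 could supply 1.33% of the counts of the lncRNA. Aldh1l1 and Gm15756 share 499 bases and also both belong to the set. The overlap could supply 39.7% of the Gm15756 counts and 20.8% of those of Aldh1l1. Gm15756 had no control count, then 68, 64 and 37 counts in Null and 86, 104 and 87 in DKO etoposide libraries, and was not called (adjusted p = 0.066).

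Gm16008 and Tnfrsf18 share 414 bases. Tnfrsf18 encodes GITR, a costimulatory receptor, and rose with etoposide, 0.0989 to 1.65 CPM in Null and 0.0245 to 0.614 CPM in DKO cells. Gm16008 had 74, 53 and 52 counts in Null and 20, 17 and 33 in DKO etoposide libraries (log2 difference -1.34 ± 0.34), and Tnfrsf18 differed by -1.38 (adjusted p = 0.010). The overlap could supply 41.5% of the Gm16008 counts. Gm28294 lies within Ptprn and shares 189 bases of exon with it. Ptprn, a protein of secretory granules, rose with etoposide as well, 1.15 to 8.43 CPM in DKO and 0.0664 to 0.618 CPM in Null cells. It could supply 49.7% of the Gm28294 counts. Neither lncRNA was tested between genotypes. Celf5 overlaps Gm16105, which just missed the etoposide limit, by 543 bases, and 14.5% of its counts could come from there.

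**Figure D4:**
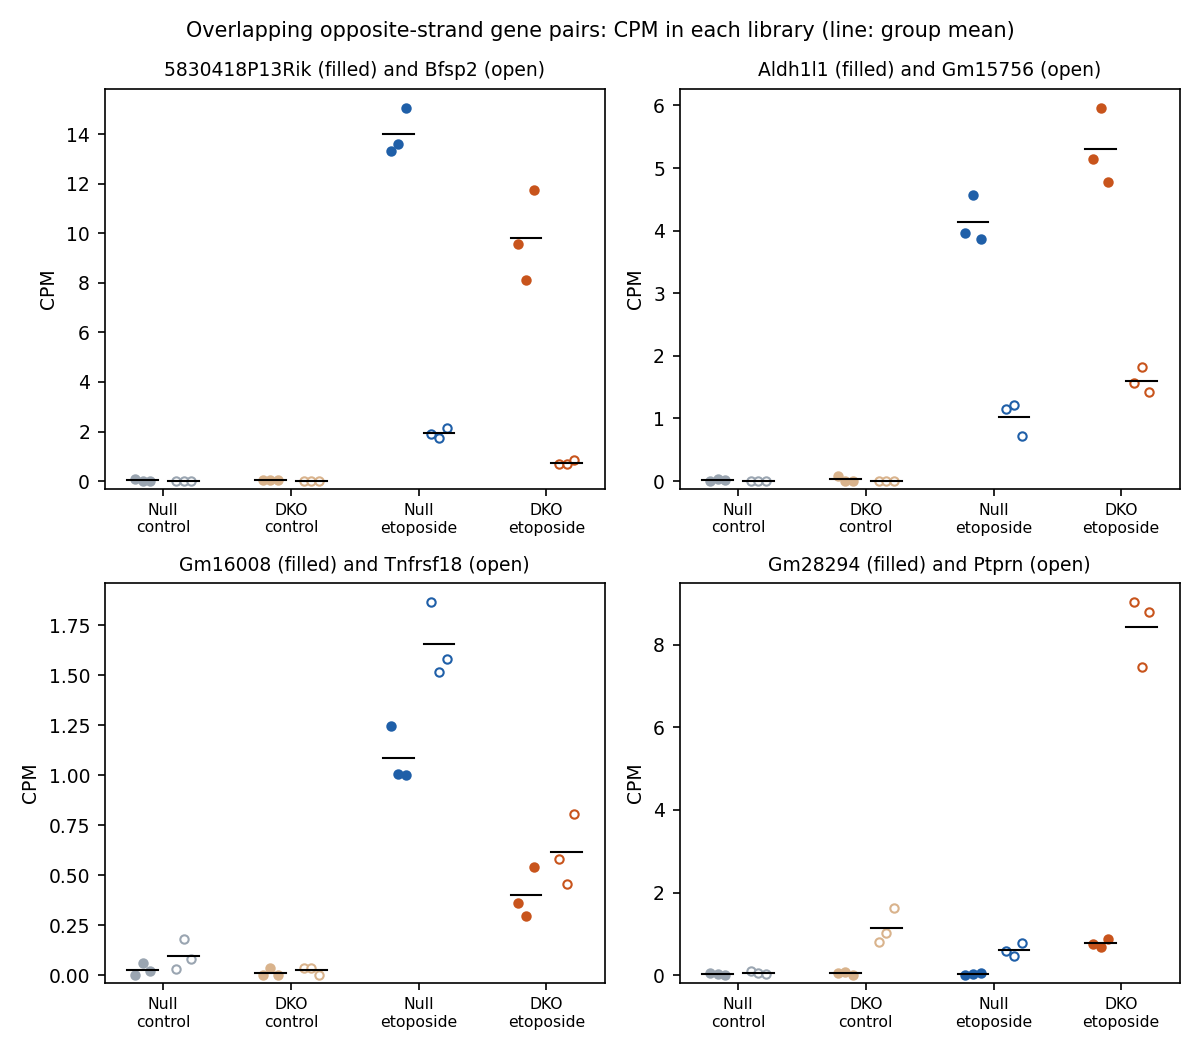
CPM in each of the 12 libraries (points; short lines are group means, n = 3) for 4 pairs of genes whose exons overlap on opposite strands, the first gene filled and the second open. In each pair both genes are near 0 in control libraries, except Ptprn in DKO control (mean 1.15 CPM), and both carry reads after etoposide in at least 1 genotype.

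Strongly induced genes, called, at least 1 higher on the log2 scale in either genotype and at 1 CPM or more over the etoposide libraries, lay within 50 kb of 8 of the 46 (17.4%), against 7.73% of silent genes that did not pass. Within 10 kb the shares were 6.52% and 2.91%. Among protein-coding genes alone they were 15% and 7.07% within 50 kb, and 2.5% and 2.10% within 10 kb. Without the limit on level, an alternative chosen after seeing the data, they were 30.4% and 14.3% within 50 kb and 19.6% and 6.30% within 10 kb. Distance was counted from the ends of the gene. The median span was 29105.5 bases against 4864.5 for silent genes that did not pass, and 29862.5 against 18124 among protein-coding genes. The part of span in these shares was not tested. Among the 8, Gm16008 and Gm28294 share exon bases with an induced gene, as described above. The induced genes below 1 CPM included Ces2f, 1671 bases from Ces2g, and Cish near Mapkapk3. Among those at 1 CPM or more was Cdkn1a, the p53 target that encodes the cell cycle inhibitor p21. It rose with etoposide, 48.2 to 392 CPM in Null and 107 to 321 CPM in DKO cells, and lies 13418 bases upstream of Rab44 on the same strand. Rab44 had no count in any control library, then 53, 36 and 45 counts in Null and 27, 43 and 36 in DKO etoposide libraries, and the genotypes overlapped. Cpne5 follows 6576 bases beyond Rab44 on the opposite strand. The others were Itm2c near Gpr55, Brpf3 near Mapk13, Acap1 near Slc2a4, Gm12356 near Csf3, Kifc2 beside Foxh1, Tnfrsf18 at Gm16008, and Dnajb2, Ptprn and Resp18 at Gm28294. Gm12356 (1.01 log2 in DKO cells) lies within the span of Psmd3 (0.96 log2) on the opposite strand. Reads that Gm12356 and Psmd3 may share were not measured, and Csf3 was among the 8 through Gm12356 alone. A few genes of the set were near each other as well: Hr and Bmp1 lie 32.0 kb apart, both at 30 counts or more only in DKO libraries, and Mapk13 lies 333.9 kb from Rab44.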

How the data were processed

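RNA was measured in 12 libraries of RAW264.7 cells. According to the study's methods, total RNA was depleted of ribosomal RNA, built into stranded libraries and sequenced in pairs, and the authors aligned with HISAT2, retained unique pairs and counted with HTSeq. The submitters' processing notes instead name HISAT2, featureCounts and mm10. The annotation release and strand setting are not given in the sources used here, and the labels name more than 1 RNA kit without saying which library had which. What the authors deposited was 1 raw count per gene and library, neither pooled nor normalized, and 0 library columns were left unmapped. The effect of keeping unique pairs on duplicated genes was not measured here.

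Groups came from the sample titles. Low counts were removed by edgeR 4.0.16 (filterByExpr on the groups; 18066 genes and 99.96% of counts kept), and libraries were scaled by TMM (factors 0.939 to 1.03), converted to log2 CPM with a prior count of 3 and tested with limma 3.58.1 in R 4.3.3 (limma-trend, robust, Benjamini-Hochberg), all 12 libraries in 1 model. A prior count of 3 draws the fold changes of weak genes towards 0. Gene models were those of GENCODE M21 (GRCm38), matched by identifier without version, for 46 of the 47 genes. The fit was tested on simulated data before use. The members of the set, the gene lists and the rules for neighbours and motifs were chosen with earlier results of these data known. All members are named, with the 3 or more genes nearest each limit outside it and the neighbours of each class. Alternatives were edgeR's quasi-likelihood test, DESeq2 1.42.0, other scalings, filters, prior counts and limits, a replicate block, and each library left out. An absence of reads in controls means fewer than the stated counts, not an absence of transcription. Columns of the authors' own comparisons were not used.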

Additional observations from a re-analysis of the deposited data

How the results depend on the processing

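The size of the set depended on its limits. It was 28 with a control limit of 2 counts, 94 with 10, 91 with an etoposide minimum of 20 counts, 30 with 50, and 19 when all 6 etoposide libraries had to reach the minimum. With counts scaled down to the shallowest library it was 36, of which 25 were in the set of 47, and leaving out 1 library in turn gave 39 to 54. The number with an expressed neighbour was 12 at 5 kb and 35 at 50 kb, with the shares of other genes given above. Of the 19 genes at the minimum in all 6 etoposide libraries, counted apart after seeing the data, 5 were lower and 2 higher in DKO cells. With only those 6 libraries in the fit 8 were lower and 6 higher, without the filter on low counts 1 was higher, and with a prior count of 1 the number higher was 0, with Plb1 at an adjusted p of 0.083 and Csf3 at 0.16. The shares called over all genes in these refits are not given here. Leaving out 1 library gave 5 to 6 lower and 1 to 3 higher. The 5 lower genes kept their call in every refit. The sign turned for 3 genes. With 1 library left out the log2 difference was -0.04 to 0.16 for Ces2g, -0.05 to 0.13 for Celf5 and -0.39 to 0.22 for Hydin, which was also at 0.04 in edgeR and DESeq2. The causes were not tested. Replicate numbers did not pair the libraries (correlations of deviations from -0.542 to 0.394), and the fit with a replicate block gave the same 5 lower and 2 higher among the 19 genes. Among neighbours, leaving out 1 library, an alternative added after seeing the data, gave 5 to 9 lower in DKO cells (8 with all libraries), 8 to 12 higher in DKO cells (11), 8 to 9 lower in Null cells (8) and 8 to 10 higher in Null cells (8). With a replicate block these counts were 8, 11, 8 and 8. At these depths, members near 30 counts carry a counting error that is not small, and reads under a few per library cannot separate a silent gene from a rare transcript.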
